A study of Homo sapiens with 6 samples.

Results

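The genes of potassium channels are described here in COV434 cells, an established ovarian tumor line, with and without BRG1. They were taken as every row of the deposited gene count table whose symbol begins with KCN, continues with further letters and ends in a number, antisense genes left out, which gave 96 of 19899 genes. By symbol they fall into 40 voltage-gated pore subunits, 16 inward rectifiers (KCNJ), 15 two-pore channels (KCNK), 8 calcium- or sodium-activated channels (KCNMA, KCNN, KCNT, KCNU) and 17 auxiliary subunits (KCNAB, KCNE, KCNIP, KCNMB). BRG1, the product of SMARCA4, is an ATPase that drives the SWI/SNF chromatin remodeling complex, and the study groups COV434 with lines of SCCOHT, a rare small cell carcinoma of the ovary that lacks it. RNA-seq compared 3 Control samples, which received the empty plasmid pCDNA3-neo, with 3 BRG1 samples, which received PBJ5-BRG1. Both groups also received the puromycin resistance plasmid pBABE-puro, were put on 2 to 3 µg/ml puromycin 24 hours after transfection and were harvested after 3 days of it. The samples are therefore selected pools of transfected cells and not clones, the BRG1 and empty plasmids have different backbones, and part of the SMARCA4 reads come from the plasmid.

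Potassium channels let potassium leave or enter the cell along its gradient and set the resting membrane potential, cell volume and the shape of electrical signals. Voltage-gated channels open on depolarization, inward rectifiers pass current best near rest, two-pore channels leak at rest, and calcium-activated channels tie the membrane potential to intracellular calcium. In epithelia such channels supply the driving force for salt and water transport, and auxiliary subunits change how the pores open or where in the cell they sit.

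The 6 libraries held 29699741 to 63613710 estimated counts, the shallowest being BRG1 sample 3. SMARCA4 had 1439 to 1676 normalised counts in Control and 78590 to 108700 in BRG1 samples, so it was higher in every library labelled BRG1. The related ATPase SMARCA2 had 3.79 to 35.7 normalised counts over the 6 samples. Of 6 granulosa cell markers, FOXL2, FSHR and AMHR2 held 3 counts or fewer in every sample, AMH had 226.6 to 398.2 normalised counts in Control and 340.6 to 455.2 with BRG1, INHA had 38.7 to 47.5 and 35.7 to 41.8, and CYP19A1 was called higher with BRG1. Summed keratinocyte markers were at 237 to 467.8 normalised counts in Control and 55810 to 143400 in BRG1 samples, with 3 of 4 called higher. KRT6A made up most of that sum, with a BRG1 mean of 99170 beside 914 for KRT5 and 476.1 for KRT14. TP63 was not called, with means of 7.16 in Control and 6.12 with BRG1. Endothelial markers were at 25.6 to 91.6 and 3350 to 3936, with 2 of 3 called higher. The erythroid list had 1 of 3 called (HBB, at 28.2 to 38.8 summed counts with BRG1, while HBA1 and HBA2 held 3 counts or fewer everywhere), the neuron list 1 of 4 (MAP2, summed list 406.6 to 633.5 in Control and 734.3 to 1083 with BRG1) and the leukocyte list 0 of 5 by DESeq2 and edgeR, and 0 at an unadjusted p under 0.05 (343.5 to 676.9 and 367.8 to 735.8). The part of these marker genes in the results below was not tested, and in bulk RNA fewer or more cells of a kind cannot be told apart from less or more RNA per cell.

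Before transfected BRG1 the line already held RNA of many channel genes. Normalised counts are counts divided by a size factor for each sample, and between genes they were compared per kilobase of merged exons. KCNN1, KCNH7 and KCNG1 were among the most abundant in Control with 258.2, 256.5 and 237.7 per kb, values that lie closer together than their spread between samples (KCNH7 and KCNG1 were picked for their rank after the values were seen). At the other end, 15 members held 3 counts or fewer in every sample, namely KCNA10, KCNA5, KCNA6, KCNA7, KCNB2, KCNE5, KCNG4, KCNJ1, KCNJ15, KCNJ5, KCNK16, KCNK17, KCNK18, KCNMB2 and KCNS1. A count this low limits the RNA and does not show that a gene was silent.

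**Figure D1:**
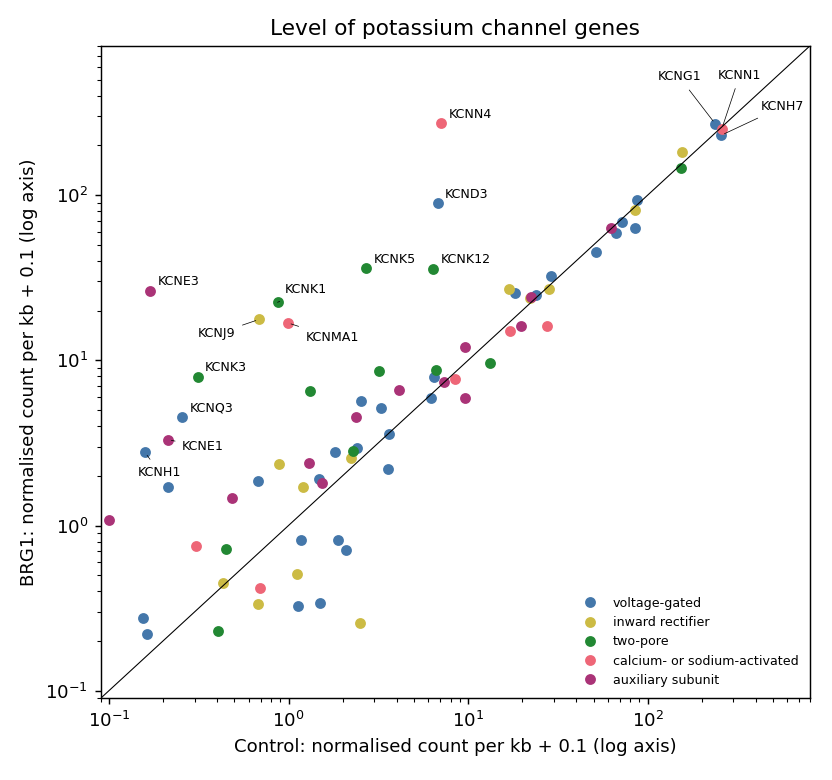
Mean level of the channel genes above the floor in Control (horizontal axis) and BRG1 samples (vertical axis), as normalised counts per kb of merged exons plus 0.1 on log axes, 1 point a gene, with the diagonal marking equal levels and genes not reported here left out. The abundant genes lie near the diagonal, with KCNH7 at 256.5 and 230.2, while the genes called higher (KCNN4, KCND3, KCNE3 and others) rise from low Control levels.

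With BRG1, 13 of the 96 channel genes were higher and 1 was lower at an adjusted p under 0.05 (DESeq2 Wald test, Benjamini-Hochberg over all genes). The 13 include both KCNE1 and KCNE1B, near-identical rows that may stand for 1 gene. The test gave an adjusted p for 77 of the 96, and besides the 15 at the floor it gave none for KCNA3, KCNF1, KCNIP1 and KCNJ18. Thus 16.9% of those tested were called higher, beside 11.0% of all 16002 genes tested, and 1 was lower beside a background of 1.84%, a call that was not made without BRG1 replicate 2. By the quasi-likelihood test of edgeR, which tested 53 members, 12 were higher and 1 lower, against 9.57% and 1.02% of all genes. When the replicate number entered as a block, the same 13 and 1 members were called by DESeq2 (13.4% and 6.61% of all genes) and 12 and 1 by edgeR (13.7% and 5.68%). Of the 77 tested members 21 had all BRG1 samples above all Control samples and 4 had them all below, beside 16.7% and 9.92% of all genes tested. The median log2 fold change of the tested members was 0.23, or 0.22 with genes at the floor set to their bound, and over all genes tested it was -0.01.

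**Figure D2:**
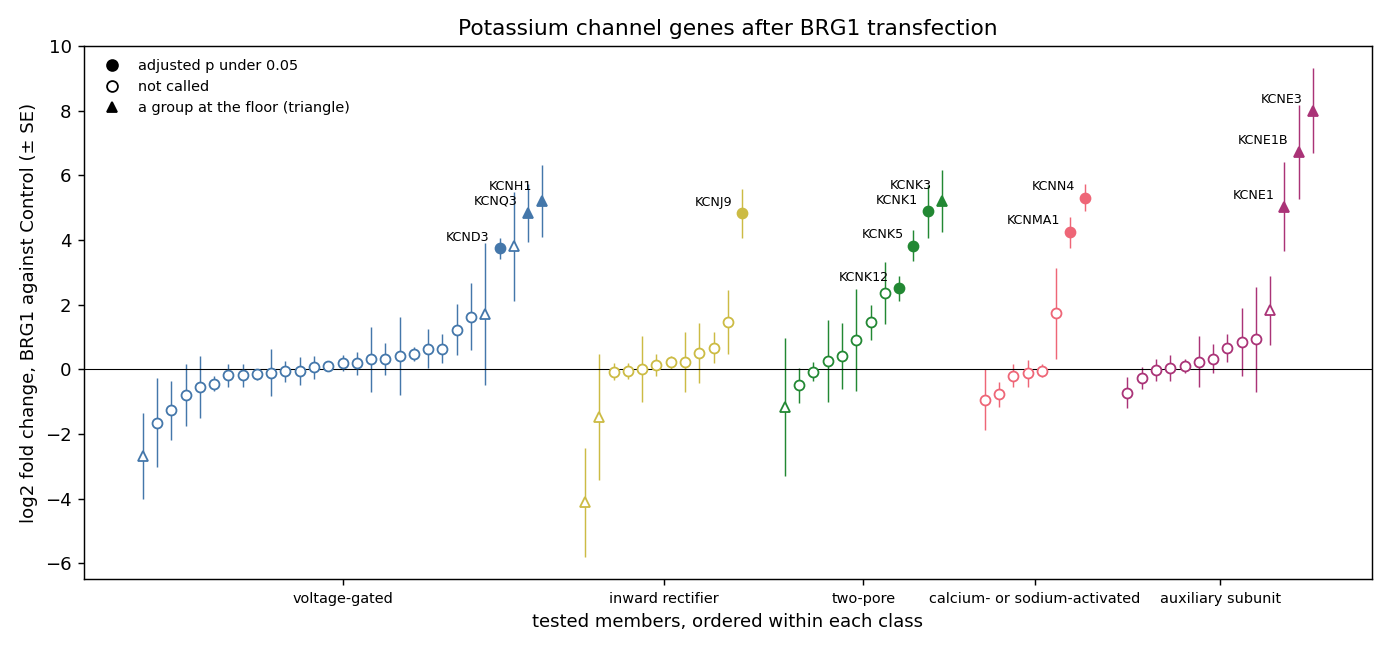
Log2 fold change of BRG1 against Control with its standard error (vertical axis) for the tested channel genes, those not reported here left out, ordered within each class (horizontal axis). Filled symbols passed the adjusted p, and triangles mark genes with a group at 3 counts or fewer, whose fitted change depends on the model; the 13 filled symbols all lie above 0.

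The genes that rose were mostly ones the line scarcely held. Of the 13, 9 had a Control mean under 10 normalised counts, and 6 had 3 counts or fewer in every Control sample. For those 6 the fold is given only as a lower bound, computed against 3 counts. In all 13 the lowest BRG1 sample was above the highest Control sample. The 13 were called from these same samples, so this separation is a description and not further support. BRG1 sample 3, the shallowest library, was the lowest of the BRG1 samples in 9 of the 13 after normalisation.

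**Figure D3:**
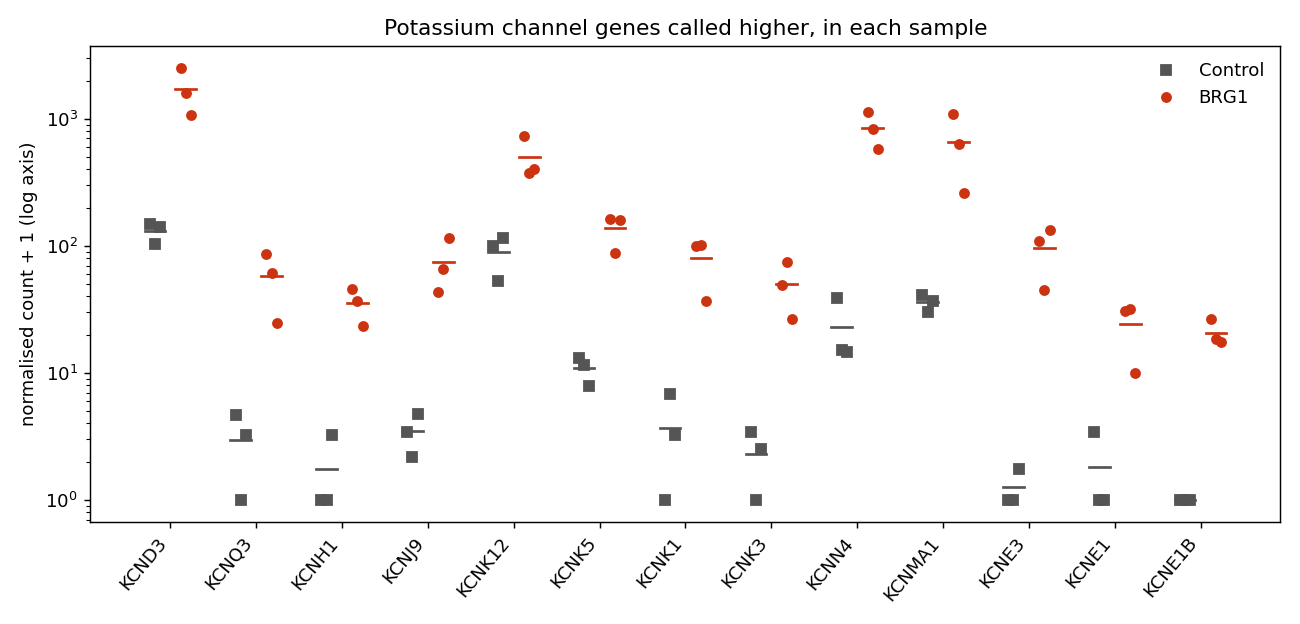
Normalised count plus 1 on a log axis in each Control (squares) and BRG1 (circles) sample for the 13 channel genes called higher, grouped by class, with a short line at each group's mean of the plotted values. In KCNN4 the Control samples lie at 13.6 to 37.8 and the BRG1 samples at 574.6 to 1137, and in all 13 genes the groups stand apart.

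In the calcium-activated class the genes of the large- and intermediate-conductance channels rose, and the small-conductance gene KCNN1 did not pass the test. KCNN4, on chr19:43766533-43780976 (hg38, minus strand), encodes the intermediate-conductance channel that opens through calmodulin and is known from lymphocytes, red cells and secretory epithelia. It had 37.8, 14.1 and 13.6 normalised counts in Control samples 1 to 3 and 1137, 834 and 574.6 in BRG1 samples 1 to 3. Every BRG1 sample was far above every Control sample, and the log2 fold change was 5.31 ± 0.42 (SE; DESeq2 adjusted p = 4.5e-34, edgeR 0.00039). Within each replicate number the fold was 30.1, 59.3 and 42.2. Per kb it went from 6.99 ± 4.42 to 271.7 ± 90.1 (SD, n = 3), so that its level in the BRG1 samples overlapped those of KCNG1 and KCNN1. 

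KCNMA1, on chr10:76869601-77638369 (minus strand), is the pore of the large-conductance (BK) channel, which answers to both voltage and calcium. Its normalised counts were 40.2, 29.3 and 35.6 in Control and 1091, 635.5 and 258.2 in BRG1 samples. The Control samples lay close together and the BRG1 samples spread over a wide range, all above them, and the log2 fold change was 4.24 ± 0.48 (by DESeq2, adjusted p = 3.4e-17, edgeR 0.00171). Per kb of merged exons it reached only 16.8 ± 10.6, because its many transcripts make the merged exons long, and its place in BRG1 samples was 29 on that scale and 13 per kb of the canonical transcript. KCNN1, a small-conductance channel of neurons, had 1190, 883 and 1233 normalised counts in Control and 895.8, 1169 and 1149 in BRG1 samples, so the groups overlapped (log2 fold change -0.04 ± 0.21, DESeq2 adjusted p = 0.957). The other 5 genes of the class (KCNN2, KCNN3, KCNT1, KCNT2 and KCNU1) had log2 fold changes of -0.94 to 1.73 and none was called. By counts this class had 2 of 8 tested members higher, 25.0% beside 11.0% of all genes tested, with a median log2 fold change of -0.08.

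The upstream sequences of both genes are shown with that of a channel gene that was not called, because the study ties BRG1 to AP-1. The letters searched were TGANTCA, where N is any base. The AP-1 consensus is TGACTCA or TGAGTCA, so the search is wider than that site. The sequences are the 250 bases before a transcription start in the RefSeq promoter table (GRCh38.p14). All are read on the minus strand from 5′ to 3′, with matches to TGANTCA in capitals. They are in order the most upstream KCNMA1 start in the table (chr10:77637809-77638058), a later KCNMA1 start (chr10:77350762-77351011), the KCNN4 start (chr19:43780974-43781223) and a KCNJ4 start (chr22:38444029-38444278).
KCNMA1 first start: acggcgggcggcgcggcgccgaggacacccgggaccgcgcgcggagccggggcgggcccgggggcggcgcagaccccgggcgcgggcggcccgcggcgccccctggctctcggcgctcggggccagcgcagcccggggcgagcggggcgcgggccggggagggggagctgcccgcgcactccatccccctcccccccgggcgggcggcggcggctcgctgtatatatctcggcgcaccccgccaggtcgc
KCNMA1 later start: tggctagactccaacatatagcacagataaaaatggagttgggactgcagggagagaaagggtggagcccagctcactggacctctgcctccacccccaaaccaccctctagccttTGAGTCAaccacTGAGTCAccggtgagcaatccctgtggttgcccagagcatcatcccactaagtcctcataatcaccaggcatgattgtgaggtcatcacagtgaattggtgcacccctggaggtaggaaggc
KCNN4: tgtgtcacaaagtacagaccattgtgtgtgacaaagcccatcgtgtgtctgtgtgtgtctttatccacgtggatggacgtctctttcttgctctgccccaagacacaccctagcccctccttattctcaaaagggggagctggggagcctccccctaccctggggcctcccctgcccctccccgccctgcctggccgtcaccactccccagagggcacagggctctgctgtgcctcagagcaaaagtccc
KCNJ4: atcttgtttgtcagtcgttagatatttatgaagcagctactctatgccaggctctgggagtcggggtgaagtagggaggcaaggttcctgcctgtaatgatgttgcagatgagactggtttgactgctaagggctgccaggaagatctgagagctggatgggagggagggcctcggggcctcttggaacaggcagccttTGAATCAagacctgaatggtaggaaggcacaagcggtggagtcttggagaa
The later KCNMA1 window holds the letters at -134 and at -122 from the start, with 5 bases between the matches, and its GC content is 53.6% against 85.6% at the first start. The KCNN4 window holds none. KCNJ4, not called, holds 1 match at -51, which reads TGAATCA and is not the AP-1 consensus. 

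Over windows of 250 bases before to 50 bases after each start, searched on both strands, TGANTCA occurred in 7.71% of all 35116 promoters and in 8.26% of the 109 promoters of channel genes, which cover 71 of the 96 members. Among the 14 promoters of 9 members called higher, 1 held it (KCNMA1). The interferon-stimulated response element, searched by its consensus letters, was in 3.57% of all promoters, in 0.917% of those of channel genes (KCNMB3) and in 0 of the 14. A match describes these letters only, and counts per gene do not show which start was used.

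Of the two-pore channels 4 of 12 tested members were higher (33.3%, beside 11.0% of all genes tested). Over the tested members the median log2 fold change was 1.18. KCNK5 on chr6:39188971-39229475 encodes TASK-2, a channel opened by alkaline pH and known from kidney epithelium. It had 12.2, 10.6 and 6.81 normalised counts in Control and 161, 87.2 and 159.7 in BRG1 samples. The groups were well apart, at 3.82 ± 0.48 on the log2 scale (by DESeq2, adjusted p = 6.1e-14, edgeR 0.00109), and here BRG1 sample 3 was not the lowest. KCNK12 on chr2:47509290-47570985 encodes THIK-2, a channel mostly held inside the cell. It stood at 98.7, 51.6 and 114.3 in Control and 724.7, 373 and 404.5 in BRG1 samples. It was the member called higher with the smallest fold, 2.501 ± 0.383 on the log2 scale (DESeq2 adjusted p = 1.8e-09, edgeR 0.00465), and its smallest fold within a replicate number was 3.54. Of its exonic bases 9.6% lie under other genes.

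KCNK1 on chr1:233614106-233672514, which encodes TWIK-1, had 0, 5.86 and 2.27 normalised counts in Control and 99.4, 101.3 and 35.8 in BRG1 samples. KCNK3 on chr2:26692722-26733420, the acid-sensitive TASK-1, had 2.44, 0 and 1.51 and then 47.9, 73.1 and 25.4. Both were near 0 in all Control samples and lowest in sample 3 among the BRG1 samples. The log2 fold change of KCNK1 was 4.88 ± 0.81 (DESeq2 adjusted p = 3.8e-08, edgeR 0.00594). KCNK3 rose at least 15.5-fold (DESeq2 adjusted p = 1.4e-06, edgeR 0.00366). KCNK13, encoding THIK-1, the partner of THIK-2, was the most abundant gene of the class in Control, with 308.2, 308.4 and 434.6 normalised counts there and 250.3, 299 and 450.7 in BRG1 samples. These ranges overlapped (log2 fold change -0.08 ± 0.29, DESeq2 adjusted p = 0.942). The remaining 7 tested genes of the class had fitted changes of -1.16 to 2.36 on the log2 scale without a call.

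Voltage-gated channels, the largest class, had 3 of 31 tested members higher (9.68%, beside 11.0% of all genes tested) and 1 lower (beside 1.84%). Over the tested members the median log2 fold change was 0.09. KCND3 on chr1:111770662-111989668 (minus strand) encodes Kv4.3, which carries fast transient outward current in heart and brain. It had 147.4, 102 and 138.6 normalised counts in Control and 2531, 1587 and 1063 in BRG1 samples. It was the gene of its class with the highest BRG1 level among those that rose, all BRG1 samples lying above all Control samples (log2 fold change 3.74 ± 0.33; DESeq2 adjusted p = 3.4e-27, edgeR 0.00041). Per kb it went from 6.67 ± 1.24 to 89.1 ± 38.4, from place 31 to place 10 among the channel genes.

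KCNH1 on chr1:210676823-211134165 encodes Kv10.1 (EAG1), a brain channel often found in tumors. It had 0, 0 and 2.27 normalised counts in Control and 44.97, 35.7 and 22.4 in BRG1 samples, at least 10.9-fold higher (DESeq2 adjusted p = 4.3e-05, edgeR 0.0052). Other genes cover 46.8% of its exonic bases, including a gene on the opposite strand, and the libraries do not keep strand, so this value is uncertain. KCNQ3, on chromosome 8, encodes Kv7.3, a subunit of the M-current of neurons. It had 3.66, 0 and 2.27 in Control and 84.9, 60.6 and 23.9 in BRG1 samples and was at least 17.9-fold higher (DESeq2 adjusted p = 1.3e-06, edgeR 0.00639). 

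The other tested genes of the class had fitted log2 fold changes of -2.68 to 3.80, the ends of which belong to genes with a group at the floor. Without BRG1 replicate 3 the class had 5 members higher, with KCNA1 and KCNC4 added.

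Of the inward rectifiers 1 of 12 tested members was called higher (8.33%, beside 11.0% of all genes tested). Over the tested members the median log2 fold change was 0.18. KCNJ9 on chr1:160081538-160090563 encodes GIRK3, a subunit of channels opened by G proteins. It had 2.44, 1.17 and 3.79 normalised counts in Control and 42.1, 64.8 and 114.9 in BRG1 samples. Its BRG1 samples were all above Control, and sample 3 was here the highest (log2 fold change 4.82 ± 0.76; DESeq2 adjusted p = 6.1e-09, edgeR 0.00207). The other GIRK genes, looked up after the values were seen, were low or at the floor. KCNJ5 held 3 counts or fewer in every sample, KCNJ6 had means of 6.65 and 6.94 normalised counts in Control and BRG1 samples, and KCNJ3 had 1.22, 28.1 and 6.06 in Control and 0, 0.831 and 1.49 with BRG1. 

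KCNJ11, the pore of the ATP-sensitive channel, had 336.2, 419.8 and 508.8 normalised counts in Control and 359.8, 349.7 and 501.5 in BRG1 samples (log2 fold change -0.07 ± 0.25, DESeq2 adjusted p = 0.942). KCNJ4, a strong rectifier of the brain, had 320.4, 365.9 and 276.3 and then 334.4, 389.6 and 398.5 (0.22 ± 0.20, adjusted p = 0.644). In both genes the groups overlapped.

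Among auxiliary subunits the genes called were all of the KCNE family, small single-span proteins that change the gating of voltage-gated pores. In the class 3 of 14 tested members were higher (21.4%, beside 11.0% of all genes tested). Over the tested members the median log2 fold change was 0.49. KCNE3 on chr11:74454841-74467729 encodes the subunit that holds KCNQ1 open in intestinal and airway epithelium. It had 0, 0 and 0.757 normalised counts in Control and 108.1, 44.02 and 131.3 in BRG1 samples. With almost no reads in Control it was at least 30.02-fold higher (DESeq2 adjusted p = 2.4e-08, edgeR 0.00096). KCNE1 on chr21:34446688-34512214 encodes the subunit that slows KCNQ1 in the heart. The row KCNE1B is near-identical to KCNE1 in sequence and had no match in the annotation used. KCNE1 had 2.44, 0 and 0 in Control and 29.7, 30.7 and 8.96 in BRG1 samples, and KCNE1B had 0, 0 and 0 and then 25.4, 17.4 and 16.4. Reads that fit both were shared out between them by the counting, so each value is uncertain. The counts do not show whether these rows stand for 2 genes or 1, and the 3 members called in this class include both. KCNE1 was at least 7.35-fold higher (DESeq2 adjusted p = 0.00252, not tested by edgeR) and lost its call without BRG1 replicate 1 or 2 (adjusted p = 0.0641 and 0.0927). KCNE1B was at least 6.27-fold higher (DESeq2 adjusted p = 5.6e-05, edgeR 0.00487).

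Genes of known partners of the channels above were not called. KCNQ1, the usual partner of KCNE1 and KCNE3 and looked up for that after the values were seen, had 426.4, 307.2 and 401.3 normalised counts in Control and 228.5, 284.9 and 325.4 in BRG1 samples, with overlapping groups (log2 fold change -0.44 ± 0.24, DESeq2 adjusted p = 0.278). KCNIP2, encoding the calcium-binding subunit KChIP2 that joins Kv4 pores such as that of KCND3, had 131.6, 243.9 and 257.4 in Control and 120.4, 240.1 and 286.6 in BRG1 samples (log2 fold change 0.03 ± 0.40, adjusted p = 0.987). KCNAB2, a cytoplasmic beta subunit of Kv1 pores, had 478.7, 324.8 and 349.8 and then 401.9, 392.9 and 450.7 (0.11 ± 0.22, adjusted p = 0.881). For KCNIP2 and KCNAB2 the difference between the groups was smaller than the SD within either. None of the 4 KCNMB genes, the beta subunits of the BK channel, was called by DESeq2 or had an unadjusted p under 0.05, and edgeR tested only KCNMB3 and KCNMB4. The means were 65.0 and 64.9 normalised counts for KCNMB3 and 95.1 and 78.4 for KCNMB4 in Control and BRG1 samples. KCNMB1 had 1.22, 3.52 and 2.27 in Control and 6.53, 10.8 and 7.46 with BRG1, groups that did not overlap (at least 2.63-fold, DESeq2 adjusted p = 0.351), and KCNMB2 was at the floor.

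Summed over all members per kb, channel RNA came to 4498 ± 322.4 in Control and to 4510 ± 631.8 with BRG1 (SD over 3 samples). Such a total is set mostly by its most abundant members. Calcium- or sodium-activated channels went from 319.7 ± 43.2 to 578.9 ± 74.1. KCNN1 held 80.8% of the class in Control, and in BRG1 samples the levels of KCNN1 and KCNN4 overlapped. Two-pore channels went from 189.8 ± 34.8 to 284.4 ± 34.5 and auxiliary subunits from 141.3 ± 21.5 to 176.3 ± 23.7. Voltage-gated channels were at 3531 ± 247.5 and 3104 ± 621.3, and inward rectifiers at 316.4 ± 17.1 and 365.8 ± 33.2. The samples did not overlap between groups for the calcium- or sodium-activated, two-pore and inward rectifier classes, in which the highest Control sums were 354.4, 228.1 and 334.6 and the lowest BRG1 sums 496, 259.6 and 342.5. Within replicate numbers the voltage-gated sum was lower with BRG1 in each pair (3424 and 2500, 3355 and 3071, 3814 and 3742 in Control and BRG1). That sum follows its most abundant members and does not show a fall across the class, whose median log2 fold change was 0.09. The auxiliary sum was higher with BRG1 in each pair (116.8 and 156.7, 150.3 and 169.4, 156.8 and 202.6). These sums are a description and were not tested.

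**Figure D4:**
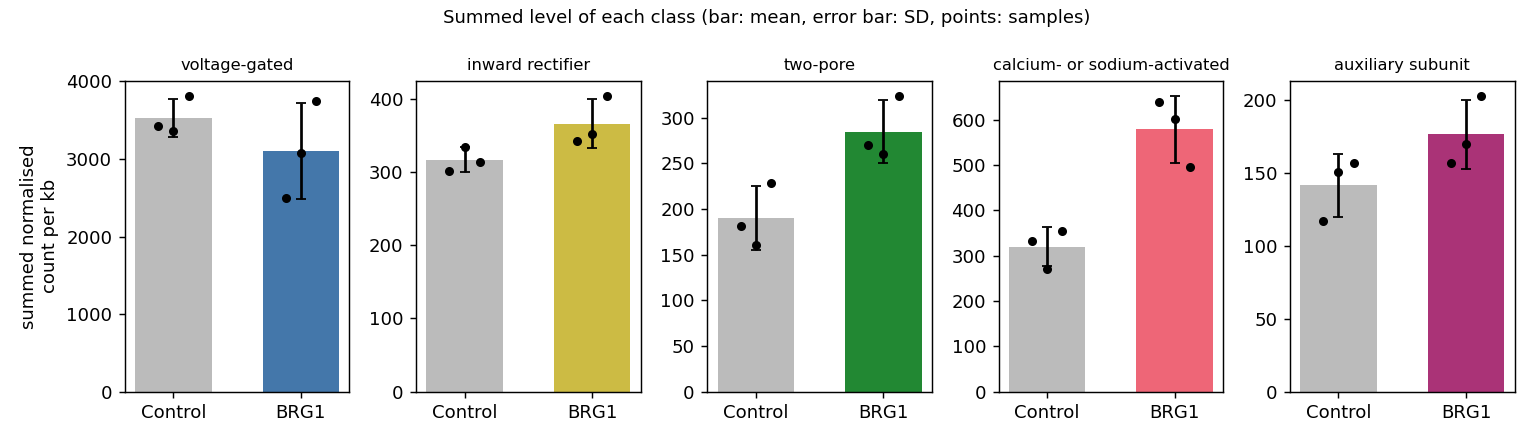
Summed normalised counts per kb of each class (vertical axes from 0, each class on its own scale) in Control and BRG1 samples, with bars for the mean, error bars for the SD and points for the 3 samples. The calcium- or sodium-activated class goes from 319.7 to 578.9 with no overlap, while the voltage-gated samples of the groups overlap, each BRG1 sample lying below the Control sample of its number.

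A further 41 genes that handle potassium or join its channels were listed from knowledge of the field, and 33 were tested. DESeq2 called 7 higher (21.2%, beside 11.0% of all genes tested) and 0 lower (beside 1.84% of all genes tested). At an unadjusted p under 0.05, 2 were lower, edgeR called 0 lower, and with the replicate block TMEM38B was called lower by either tool. Among the genes called higher were ATP1B1 and ATP1B2, for beta subunits of the sodium-potassium pump, which builds the gradient that the channels use. ATP1B1 had 86.5, 116.1 and 100.7 and then 1469, 1419 and 523.9 normalised counts in Control and BRG1 samples (log2 fold change 3.49 ± 0.38, DESeq2 adjusted p = 4.5e-18). ATP1B2 rose by 1.70 ± 0.30 on the log2 scale (DESeq2 adjusted p = 4.4e-07). SLC12A2, the sodium, potassium and chloride cotransporter of secretory epithelia, had 5588, 3994 and 4147 and then 10920, 9596 and 6612 (0.98 ± 0.24, adjusted p = 0.00058). The groups did not overlap in ATP1B1, ATP1B2 or SLC12A2, and they overlapped in ATP1B3.

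Also called were LRRC38 and LRRC55, leucine-rich repeat proteins that act as gamma subunits of the BK channel and let it open at lower voltage. LRRC38 had 0, 0 and 0 normalised counts in Control and 119, 110.5 and 11.9 in BRG1 samples, with sample 3 far below the other BRG1 samples, and was at least 25.6-fold higher (DESeq2 adjusted p = 5.8e-08, edgeR 0.018). LRRC55 had 0, 1.17 and 0.757 and then 30.5, 37.4 and 28.4, at least 10.2-fold higher (DESeq2 adjusted p = 4e-05, edgeR 0.00122). The BK pore gene KCNMA1 and these 2 partners were each higher in every BRG1 sample than in any Control sample. They were called from these same samples, so this separation is a description and not further support. The BK gamma subunit genes LRRC26 and LRRC52, also on the list, were not called. LRRC26 had 3.66, 1.17 and 7.57 normalised counts in Control and 2.18, 2.49 and 4.48 in BRG1 samples (DESeq2 adjusted p = 0.91). LRRC52 held 3 counts or fewer in every sample. None of the 7 genes of other potassium-permeable channels on the list was called by DESeq2 or edgeR without the block, and 1, TMEM38B, had an unadjusted p under 0.05.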

How the data were processed

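RNA was measured in 3 Control and 3 BRG1 samples, which the labels call biological replicates. Unstranded poly(A) libraries, from 500 ng of RNA each, were read as pairs of 78 bases. Reads were checked with FastQC (0.11.5), aligned with STAR (2.5.3a) and quantified with Salmon (0.8.2) on hg38, per the study's methods and the submitters' processing notes. The deposited values are estimated counts (expected counts) per gene, which the authors made with tximport from TPM scaled by transcript length and library size. Salmon shares reads between similar genes, and antisense RNA over the same exons adds to a gene.

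The estimated counts were rounded. Groups were compared by the DESeq2 Wald test (1.42.0, R 4.3.3) on all 19899 genes with median-ratio size factors, no covariate and a Benjamini-Hochberg adjusted p under 0.05. Where DESeq2 gave no adjusted p, none was filled in. Alternatives were edgeR (4.0.16, quasi-likelihood) and limma-voom (3.58.1). On simulated counts the false calls of DESeq2 exceeded its threshold while those of edgeR were near it, so both are given. Totals of 29699741 to 63613710 counts set the counting error. A group with 3 counts or fewer in every sample was at the floor, and folds against it use 3 counts per library, averaged over the group after normalisation. Levels per kb used merged exon lengths, and coordinates the genes, of GENCODE release 44 (hg38); the canonical transcript length was an alternative chosen after seeing the data. KCNE1B had no match there.

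Deviations of same-numbered samples from their group means correlated (r = 0.341, 0.298 and 0.459 over 14220 genes), so the shared replicate number was taken to pair samples. The genes, lists and classes were chosen with earlier results of these data known. The rule for naming took each called member and the 2 members with the largest mean in each class. No protein sequences were used here. Some genes are not reported here by name and were left out of the plots of single genes, while counts and sums include them.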

Additional observations from a re-analysis of the deposited data

How the results depend on the processing

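The 13 channel genes called higher stayed called, in the same direction, under DESeq2 with TMM size factors, without independent filtering, at an adjusted p under 0.01, with a log2 fold change of at least 1 and with the replicate block. Under edgeR, limma-voom, edgeR with the replicate block and the filter of 10 counts in 3 samples 12 were called, because KCNE1 was not tested there. Leaving out 1 sample gave 12 to 16. Without BRG1 replicate 3 KCNA1, KCNC4 and KCNK6 were added, and without Control replicate 3 KCNK6 was. The count called lower, 1, became 0 with a log2 fold change of at least 1. Leaving out 1 sample gave 0 (without BRG1 replicate 2) to 2 (without Control replicate 1, which added KCNJ3). The replicate block, which uses the pairing of the samples, changed no other call of a channel gene. Over all genes the count called lower, 294, was 146 by edgeR, 169 by limma-voom, 1035 with the replicate block, 809 by edgeR with the replicate block, 130 at an adjusted p under 0.01, 11 with a log2 fold change of at least 1, and 116 (without BRG1 replicate 2) to 596 (without BRG1 replicate 3) with 1 sample left out. Of the values recomputed for named members 294 kept direction and side of the threshold, 4 fell short of it and 13 changed sign, all of genes near 0 that were not called. The log2 fold change of KCNIP2 was -0.117 by limma-voom and -0.007 by edgeR with the replicate block. With 1 sample left out it was -0.231 to 0.316 for KCNIP2, -0.251 to 0.088 for KCNJ11, -0.355 to 0.105 for KCNK13 and -0.181 to 0.074 for KCNN1. The cause was not tested. With 3 samples a group and Control at or near the floor in most called genes, the size of those rises is poorly known.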
